A study of Caenorhabditis elegans with 2 samples.

Results

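HIM-1-GFP binding was examined at the ends of 5 Caenorhabditis elegans chromosomes. The entries were chosen by position alone. They come from the deposited pooled list of peaks and background on genome build ce11. Each has its summit in the last 2 Mb of chromosome II or III or in the first 2 Mb of chromosome IV, V or X. These are called the selected ends, and they held 1752 of the 18314 pooled entries. The other 2 Mb end of each of the same chromosomes, called the opposite ends, held 1393. Each chromosome of the assembly has a left end, where its coordinates start, and a right end.

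The study used chromatin immunoprecipitation followed by sequencing on whole hermaphrodites of strain YL577, whose HIM-1 carries GFP and FLAG at its C-terminus. The young adults were collected 47 hours after synchronization of starved first-stage larvae. There were 2 samples of 1 group, numbered in the labels as biological replicates 1 and 2, and no untreated group or other genotype. The labels do not say whether these came from separate cultures, so part of their spread may be technical. Whole animals were used, so binding in the germ line, where meiosis takes place, and binding in somatic cells cannot be told apart. The authors' peak calling gave every entry a signal, and these deposited signals are used below to describe and rank entries. The pooled list was made as input for the irreproducible discovery rate (IDR), a filter that keeps peaks whose rank repeats between replicates. It therefore holds background as well as peaks, and an entry alone does not show binding. A −log10 q-value (higher is more significant) of 2 or more was given to 202 of the 1752 selected entries (11.5%). It was given to 133 of the 1393 opposite entries (9.55%). The optimal list of 2051 peaks holds those that passed the filter.

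HIM-1, also known as SMC-1, is one of the long coiled-coil proteins of the cohesin ring, which encircles sister chromatids and forms part of the axis of meiotic chromosomes. In C. elegans, homologous chromosomes pair in meiosis through a special region near one end of each chromosome, the pairing centre. These regions recruit zinc finger proteins, among them HIM-8 at the X chromosome and ZIM-1, ZIM-2 and ZIM-3 at autosomes, which recognise short sequences repeated there. The pairing centres were mapped genetically to the left ends of IV and X, which are selected ends, but to the left ends of II and III and the right end of V, which are opposite ends here. The selected ends are therefore described by position, and not as the pairing centres of these 5 chromosomes.

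The genome sequence was searched for 12-base words concentrated in each end, since repeated short sequences are what mark pairing centres. A word was kept where it lay in 15 or more 1 kb bins of an end and the number of those bins was at least 33.3% of the number of its copies in the genome, counting both strands. Bins were counted so that tandem copies weigh once. In the left end of X 9 words met this, all overlapping versions of one sequence. The word with the most copies there had 55 of its 72 genome copies in that end. The word with the highest ratio of bins to genome copies had 20 of its 29 copies there. Of the other selected ends, the right end of III had 48 words and the left end of IV had 66, while the right end of II and the left end of V had 0. The sequences below are these 2 words from X and, for the right end of III and the left end of IV, the word with the highest ratio of bins to genome copies.
X left, word with 55 copies there: TGGTCAGTGCAT
X left, word with 20 copies there: GGTCAGTGCAAG
III right, word in 35 bins with 47 genome copies: GGCTCGATTGTA
IV left, word in 22 bins with 29 genome copies: ATAGTGGTATTC

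The X words form arrays under HIM-1-GFP entries. The windows shown are the array under the strongest such entry, at chrX:1293024-1293174, and a second array at chrX:1022715-1022865, both on the forward strand of ce11. The strongest entry had a signal of 145.6 and an optimal peak. The entry over the second array had a signal of 31.4, a −log10 q-value of 0.260 and no optimal peak. That entry may therefore be background. Capitals mark every base covered by one of the 9 words on either strand. In the first window 10 copies cover 76 of 151 bases, and in the second 6 copies cover 54 of 151.
X array at 1293099: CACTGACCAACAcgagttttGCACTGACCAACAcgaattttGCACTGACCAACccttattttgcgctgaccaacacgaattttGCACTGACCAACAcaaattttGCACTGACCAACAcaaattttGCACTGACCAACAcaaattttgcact
X array at 1022790: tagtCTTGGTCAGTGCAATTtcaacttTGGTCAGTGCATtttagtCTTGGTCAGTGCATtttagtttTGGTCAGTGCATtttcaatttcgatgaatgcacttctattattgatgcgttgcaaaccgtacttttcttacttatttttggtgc

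Among the strongest entries of these ends, some stretches of repeated sequence recur. The windows shown are the strongest entry of the pooled list, at chrIII:12537290-12537588 in the selected right end, and an entry at chrIII:576680-576830 in the opposite left end, both on the forward strand of ce11. Capitals mark the longest run of at least 16 bases shared with each other window among 35 named summits. A window that overlaps the one shown, as that of summit 12537646, is left out. The named summits are the 5 strongest of each selected end and the 2 strongest of each opposite end.
III right, summit 12537439: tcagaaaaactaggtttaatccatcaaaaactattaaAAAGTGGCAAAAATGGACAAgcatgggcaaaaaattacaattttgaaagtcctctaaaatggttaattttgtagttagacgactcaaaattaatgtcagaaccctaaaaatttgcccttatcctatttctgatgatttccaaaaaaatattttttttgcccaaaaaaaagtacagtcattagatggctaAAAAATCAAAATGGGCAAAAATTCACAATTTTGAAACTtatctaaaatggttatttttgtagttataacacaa
III left, summit 576755: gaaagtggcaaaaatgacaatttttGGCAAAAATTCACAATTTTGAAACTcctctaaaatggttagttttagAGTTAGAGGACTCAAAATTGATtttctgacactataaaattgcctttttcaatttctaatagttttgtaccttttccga

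The selected ends differed widely in how many entries they held. The left end of IV held 457 entries and the right end of III held 450, the right end of II 368, the left end of V 252 and the left end of X 225. In replicate 1's own list the same ends held 577, 518, 436, 352 and 307 entries, and in replicate 2's list 577, 589, 492, 362 and 318. The order of these ends was the same in the pooled list and in replicate 1's list, while in replicate 2's list the right end of III stood above the left end of IV. Among the opposite ends, III had 339 entries, V 329, II 298, IV 243 and X 184.

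The selected ends held more entries than their opposite ends on 4 of the 5 chromosomes. The largest ratio was on IV, at 1.88 (95% interval 1.61 to 2.21), with 1.86 in replicate 1 and 1.69 in replicate 2. The ratio was 1.33 (1.15 to 1.53) on III. It was 1.23 (1.06 to 1.44) on II and 1.22 (1.00 to 1.49) on X. On V the direction was the other way, with a ratio of 0.766 (0.647 to 0.905), and 0.821 and 0.815 in the replicates. These intervals treat entries as independent counts and cover counting error only.

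Over the 5 chromosomes the selected ends held 175.2 entries per Mb and the opposite ends 139.3, a ratio of 1.26 (1.17 to 1.35). The replicates' own lists gave 1.20 and 1.22 (mean 1.21 ± 0.0130, SD, n = 2 replicates). Taking the chromosome as the unit, the difference did not pass the test: a 2-sided exact sign-flip permutation test over 5 chromosomes gave p = 0.25 (Benjamini-Hochberg adjusted over 6 tests, 0.375), where the smallest p it can give is 0.062. Without chromosome IV the ratio was 1.13. The stretch of these chromosomes between the ends held 174 entries per Mb over the 5 chromosomes, but the order differed by chromosome. On III it held 276 per Mb, above both ends (225 and 169.5), on V 154 against 126 in the selected and 164.5 in the opposite end, and on X 74.3, below both ends (112.5 and 92).

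**Figure D1:**
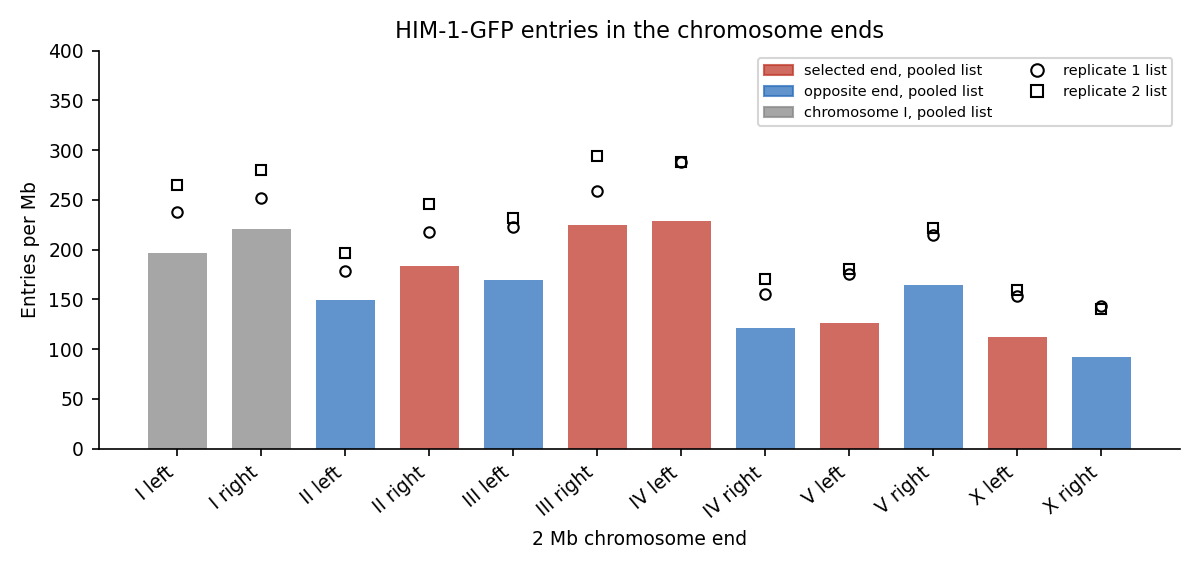
Entries per Mb (y axis) in each 2 Mb chromosome end (x axis). Bars give the pooled list, open circles replicate 1's list and open squares replicate 2's list. The red selected ends run from 112.5 per Mb on X to 228.5 on IV, and the red bar is the lower one of its chromosome on V alone.

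Genes for tRNAs, snRNAs and snoRNAs, short structured RNAs used in translation, splicing and RNA modification, hold many strong HIM-1-GFP peaks, and they lie unevenly between the ends. Of the selected entries 58 (3.31%) had a summit within 250 bp of such a gene, against 83 (5.96%) of the opposite entries. The right end of X alone accounted for 36 of the latter. Without these summits the densities were 169.4 and 131.0 per Mb, a ratio of 1.29 (1.20 to 1.39, exact permutation p = 0.1875, adjusted 0.375). The ratio on X was then 1.41 (1.14 to 1.76), and that on IV 2.00 (1.69 to 2.36).

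The number of protein-coding genes did not follow the number of entries. The left end of IV has 316 protein-coding genes and the left end of V has 397, and the left end of II, with 298 entries, has 461. Over all 12 ends of the 6 chromosomes the Spearman correlation of entries with genes was 0.161 (Pearson 0.0898, n = 12 ends, which share libraries and depth). The right end of IV, the sparse partner of the left end, holds part of a large cluster of piRNA genes, short genes of germ-line small RNAs that were not among the small RNA genes counted here.

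Within the ends the entries were spread differently on each chromosome. On III the selected end was densest at the tip, with 143 entries in the outermost 0.5 Mb and 112, 108 and 87 in the next bins inward. On IV the outermost bin also held the most, 138, followed by 92, 114 and 113. On X the tip was the sparsest, with 29 entries, and the bin from 1 to 1.5 Mb was the densest, with 88. The opposite end of III was sparser than its partner at the tip, with 58 entries against 143. It held 132, 81 and 68 in the next bins inward.

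**Figure D2:**
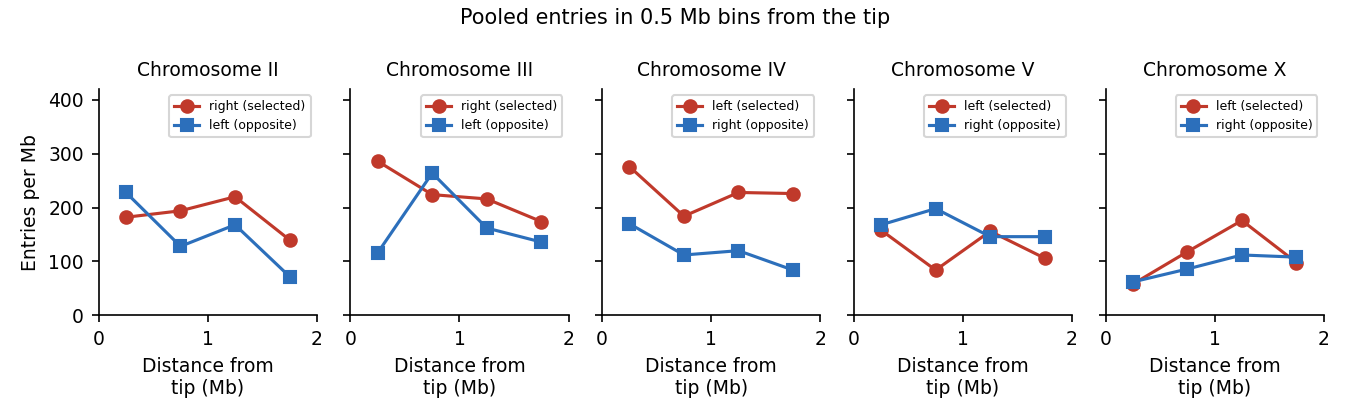
Pooled entries per Mb (y axis) in bins of 0.5 Mb against distance from the chromosome tip in Mb (x axis), for the selected end (red circles) and the opposite end (blue squares) of each chromosome. The selected end lies above the opposite end in every bin on IV, while on V it lies below in 3 of the 4 bins.

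Signals were similar at both sets of ends. The median signal was 29.3 in the selected ends and 28.4 in the opposite ends, a difference of 0.927 (exact permutation p = 0.3125, adjusted 0.375), with the selected end higher on 4 of 5 chromosomes. The difference was 0.420 in replicate 1's list and 0.450 in replicate 2's, whose signals are on lower scales. Without summits near small RNA genes the medians were 28.9 and 27.7 (difference 1.16, exact permutation p = 0.3125, adjusted 0.375). The largest difference by chromosome was on IV, 3.10 higher in the selected end, and on V the selected end showed a difference of -1.81. The median between the ends was 29.4.

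Few entries of the selected ends passed the repeatability filter, although most lay near an entry in each replicate. Of the 1752 selected entries, 192 had an optimal peak summit no more than 200 bp away, 11.0% (9.53 to 12.5%), against 12.1% of all 18314 entries and 9.19% (7.72 to 10.8%) of the opposite entries. The difference of 1.77 percentage points was higher in the selected end on 3 of 5 chromosomes (exact permutation p = 0.875, adjusted 0.875). Of the selected entries 954 (54.5%) had a summit within 200 bp in both replicates' own lists, and 37 had one in neither. The share in both lists was 56.0% over all entries and 51.2% in the opposite ends, and 408 of all 18314 entries had one in neither. Of the 192 with an optimal peak, 190 were in both lists, as were 2164 of 2224 over the whole pooled list. The filter itself asks for repetition between the replicates.

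Small RNA genes moved this comparison most on X. In the left end of X 8.44% of entries had an optimal peak and in the right end 15.8%, but without summits near small RNA genes the shares were 3.35% and 3.38%. Over the 5 chromosomes without these summits, 148 of 1694 selected entries (8.74%, 7.43 to 10.2%) and 78 of 1310 opposite entries (5.95%, 4.73 to 7.38%) had an optimal peak, where the share over all such entries is 9.25%. The difference was 2.78 percentage points, 2.76 ± 0.258 (SD, n = 2 replicates) in the replicates' lists, and higher in the selected end on 4 of 5 chromosomes (exact permutation p = 0.1875, adjusted 0.375). Both replicates' lists were matched to the same optimal list, made from both replicates, so this SD is not a spread of independent values. The right ends of III and II had the highest shares, 12.02% and 10.8%. On IV, counted among the 4, the shares were nearly equal, 7.71% in the selected end and 7.69% in the opposite end.

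The ends that genetic mapping assigns to pairing centres gave the other direction. Adding chromosome I, whose pairing centre is at its right end, and taking the mapped end of each chromosome, 8.90% of entries in the mapped ends had an optimal peak against 12.2% in the 6 partners. The mapped end was lower on all 6 chromosomes, with a difference of -3.26 percentage points and an exact permutation p of 0.03125, the smallest that 6 chromosomes can give and not adjusted for the other settings tried. Without summits near small RNA genes it was 6.97% against 9.50%, a difference of -2.53, higher in the mapped end on 1 chromosome, and the exact permutation p was 0.062. The density ratio of mapped ends to partners was 1.11 (exact permutation p = 0.469).

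**Figure D3:**
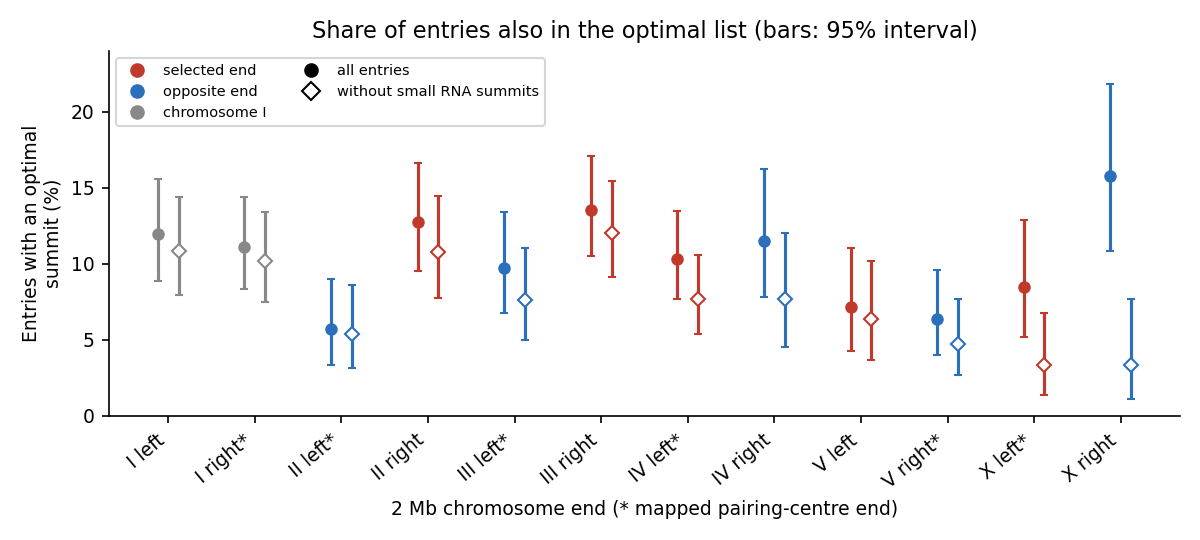
Percentage of pooled entries with an optimal summit within 200 bp (y axis) in each 2 Mb end (x axis), for all entries (filled circles) and without summits near tRNA, snRNA or snoRNA genes (open diamonds), with 95% Clopper-Pearson intervals. For all entries each asterisked end, which holds the mapped pairing centre, lies below its partner, as 5.70% against 12.8% on II.

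Most entries of the selected ends lay at gene ends, in introns or between genes. Promoters, taken here as summits no more than 500 bp from where a protein-coding gene starts, made up 24.3% of the selected entries, 19.9% of the opposite entries and 27.8% of all entries. The share at 3' ends was 19.4%, 16.4% and 20.6%, and that between genes 24.3%, 27.9% and 19.3%. These classes differed strongly in how often an entry had an optimal peak. In the selected ends this was 75.9% of the 58 entries at small RNA genes, 20% of the 340 at 3' ends and 13.2% of the 425 at promoters. In introns it was 5 of 404 (1.24%), and in coding exons 0 of 89. Over all pooled entries these shares were 67.2% at small RNA genes, 17.7% at 3' ends and 14.0% at promoters. They were 2.64% in introns and 0.348% in coding exons, so the order of the classes was not particular to the selected ends.

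Genes in the selected ends had pooled entries near their 5' ends about as often as genes at large. A pooled entry lay within 500 bp of the 5' end of 420 of the 1620 protein-coding genes there (25.9%, 23.8 to 28.1%), against 25.5% of all protein-coding genes and 301 of 1657 (18.2%, 16.3 to 20.1%) in the opposite ends. For optimal peaks the counts were 69 genes (4.26%) in the selected ends and 28 (1.69%) in the opposite ends, against 4.47% of all genes. By this measure the opposite ends were below the genome and the selected ends near it.

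Large gene families of the chromosome arms had entries at differing shares. Of 106 chemoreceptor genes, which encode the receptors of sensory neurons, 10 in the selected ends (9.43%) had a pooled entry and 1 had an optimal peak. Of all chemoreceptor genes 10.3% had an entry and 0.769% an optimal peak. The counts were 3 of 30 for F-box and MATH or BTB genes, a large family of protein-degradation adaptors, and 1 of 15 for C-type lectins, which bind sugars, where 17.9% and 12.1% of these families had an entry genome-wide. Cuticle collagen genes had an entry at 2 of 14, with 14.7% genome-wide. None of these 3 families had an optimal peak in the selected ends, where 2.79%, 1.67% and 3.21% of them had one genome-wide. Nuclear hormone receptor genes had an entry at 10 of 43 (23.3%, 11.8 to 38.6%), near the share of all protein-coding genes there, with 0 optimal peaks. Genome-wide 13.4% of the family had an entry and 0.743% an optimal peak. Ribosomal protein genes had entries at 4 of 5 and optimal peaks at 3, where 82.1% and 37.2% of all ribosomal protein genes did. The opposite ends held 144 F-box and MATH or BTB genes, of which 15 had an entry.

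The tRNA genes, read by RNA polymerase III, were the small RNA genes most often at an entry. Of the 36 tRNA genes in the selected ends 28 (77.8%) had an entry and 26 an optimal peak, and of the 79 in the opposite ends 71 and 46, while 88.7% of all 612 tRNA genes had an entry. The optimal share was 72.2% in the selected ends, 58.2% in the opposite ends and 68.5% of all tRNA genes. Of 10 snRNA genes, most of whose RNAs form the spliceosome, 7 had an entry and 4 an optimal peak, with entries at 59.7% of all snRNA genes. Of 34 snoRNA genes, whose RNAs guide modification of other RNAs, 9 (26.5%) had an entry, near the share of protein-coding genes in these ends, and 37.9% of all snoRNA genes had one. An optimal peak lay at 6 of the 34 (17.6%), against 25.1% of all snoRNA genes, and at 39.5% of all snRNA genes.

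The 5 strongest entries of each selected end, 25 in all, had signals from 105 to 497. All 25 had an optimal peak, and all were among the 2051 strongest entries of both replicates' own lists. Of the 25, 9 lay near a tRNA, snRNA or snoRNA gene, and 8 had a protein-coding 5' end within 500 bp. The 2 strongest of each opposite end, 10 in all, ran from 127 to 236, and 6 of them lay near a small RNA gene. These entries were ranked by signal, so their strength is a description.

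The right end of III held the strongest entry of the pooled list. Its interval, chrIII:12537218-12537817, has a summit at 12537439 that had a pooled signal of 496.7 and ranked first of 18314, with 225.4 and rank 1 in replicate 1 and 297.4 and rank 2 in replicate 2. It lies in the repeat-bearing window shown above, 1225 bp downstream of aakg-1, a regulatory subunit of AMP-activated protein kinase. A second summit of the same interval, at 12537646, had a signal of 314.4. The next 3 lay at 3' ends. These were at rsp-8, an SR-type splicing factor gene, with a signal of 253.4, at tpst-1, which encodes a protein-tyrosine sulfotransferase, with 218.7, and 129 bp past T28A8.3 with 179.7.

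Windows of 150 bp on each side of these 35 summits were compared for shared runs, leaving out pairs of windows that overlap. The strongest window of III shared 25 bases with the window at gtf-2H5, a subunit gene of the general transcription factor TFIIH, in the opposite end, 22 with the window at 88137 on II and 20 with the window at T28A8.3. The last 2 of these shared 40 bases with each other. The run found in most windows was 16 bases long:
run on III, forward strand at 12652146: aattttgagtcctcta

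This run lay in 4 of the 35 windows and had 141 copies in the genome. In the selected ends 14 of its 41 copies (34.1%) lay within 250 bp of a pooled summit, where 8.17% of bases do. In the lists of both replicates the share was 31.7%, over 10.1% and 10.8% of bases. In the opposite ends 7 of 65 copies (10.8%) lay near a summit, over 6.53% of bases. In the whole genome 36 of the 141 copies (25.5%) did, over 8.43% of bases. A share above that of bases was therefore not particular to the selected ends. The run was picked from strong entries, 2 of them in the selected ends, so these shares are a description. Whether reads from repeated sequence were placed on one copy or several was not tested, since alignments were not used here.

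On II the strongest selected entry, 281.7, lay in an intron of sre-45, a chemoreceptor gene, with 99.5 in replicate 1 and 182.6 in replicate 2. The next lay at small RNA genes, the snoRNA F01D5.12 with 209.4 and the snoRNA Y53F4B.47 with 186.1, the latter beside cmtr-1, an mRNA cap methyltransferase gene. The next, 184.5, was 910 bp upstream of dhs-8, a short-chain dehydrogenase gene, where 2 unclassified non-coding RNAs are annotated. Y54E2A.8 followed, with a signal of 177.6 and a summit 43 bp upstream of it.

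On IV the strongest entry, 210.1, lay at the snoRNA Y55F3BR.9, with 100.7 in replicate 1 and 111.8 in replicate 2. It was followed by the promoter of rpl-15, which encodes a protein of the large ribosomal subunit, with 197.1 and a summit 363 bp upstream. Then came 2 tRNA genes, F29C4.t1 in an intron of col-99, a collagen gene, with 181.2, and K02D7.t1 inside grl-26 with 151.3. The last, 138.0, lay 7 bp upstream of Y38C1AA.12, just past the 3' end of pnc-1, a nicotinamidase gene.

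The left end of V had the weakest set. Its strongest entry, 140.4, lay at the snRNA R07E5.16 inside K09C6.2, with 58.3 in replicate 1 and 84.3 in replicate 2, and a neighbouring entry at the same snRNA had 107.0. An entry of 119.0 lay at the 3' end of cgp-1, which encodes a GTP-binding protein. Promoter entries lay upstream of cul-3, a cullin of ubiquitin ligases, with 113.6, and of knl-3, a kinetochore gene, with 104.8.

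In the left end of X the strongest entry, 236.1, lay at the tRNA F38G1.t2 inside egl-17, a fibroblast growth factor gene, with 96.0 in replicate 1 and 137.3 in replicate 2. This tRNA has a near-identical partner at IV K02D7.t1, and their windows share an unbroken run of 84 bases with 3 copies in the genome:
run shared by K02D7.t1 and F38G1.t2, written as on IV: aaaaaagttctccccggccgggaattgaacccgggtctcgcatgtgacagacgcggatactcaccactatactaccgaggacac

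A run of 77 bases of it also occurs at the strongest entry of the right end of X, the tRNA F59C12.t2, with a signal of 235.8. How reads were shared between these copies was not tested. The next X entry, with 172.4, lay near WBGene00020828, where a pseudogene, T26C11.3, is annotated. Those after it lay at the tRNA Y59E1B.t2, with 165.3, and at an annotated tRNA pseudogene, ZK380.t2, with 164.3. The last, 145.6, had no small RNA gene within 250 bp and lay 2154 bp upstream of dop-4, a dopamine receptor gene.

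The entry upstream of dop-4, at chrX:1292867-1293330, is the one over the first array shown above. Its summit had a signal of 70.4 in replicate 1 (rank 211) and 75.4 in replicate 2 (rank 353), and 15 copies of the X words lay within 250 bp. The entry beside it, with its summit at 1293312, overlaps it and had a signal of 79.3 and 9 copies within 250 bp. The 151 bases around its summit hold 0 copies. It had the same replicate 1 signal, 70.4, and 12.7 in replicate 2. Both had an optimal peak. They were the 2 entries of the left X end with 3 or more copies that did, and as they overlap they are 1 locus.

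Copies of the X words lay near HIM-1-GFP entries far more often than bases of the same end did. Of the 280 copies in the left 2 Mb of X, 116 (41.4%) lay within 250 bp of a pooled summit, where 5.38% of bases do. In replicate 1's list it was 36.1% of copies against 7.26% of bases, and in replicate 2's 49.6% against 7.62%. Words overlap and cluster in arrays, so copies are not separate sites. Counted by 1 kb bins, a summit lay in 38 of the 110 bins with a word (34.5%, 25.7 to 44.2%) and in 9.26% of the bins without. The bins gave 34.5% against 12.8% in replicate 1 and 40.9% against 13.5% in replicate 2.

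Words and entries were both most frequent 1 to 1.5 Mb from the tip of this end. From the tip inward, the bins of 0.5 Mb held 2, 117, 150 and 11 word copies and 29, 59, 88 and 49 entries. Outside the left end, 77 copies lay in the middle of X, where 10 of 44 bins with a word held a summit (22.7%) against 6.68% of the others. In the right end 0 of 8 such bins did, which allows up to 36.9% (exact 95% bound). All other chromosomes together held 131 copies, against 368 on X.

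Entries over the X words were moderate in signal. The 21 entries with 3 or more copies within 250 bp ran from 23.2 to 145.6 with a median of 42.8. The 175 entries with no copy and away from small RNA genes ran from 21.8 to 172.4 with a median of 26.4. All 21 had a summit within 200 bp in replicate 2's list, as did 137 of the 175. In replicate 1's list 14 of the 21 and 109 of the 175 had one. In both lists it was 14 of the 21 and 75 of the 175. None of the 21 lay near a small RNA gene. Only 2 of the 21, the overlapping pair upstream of dop-4, had an optimal peak, and 5 of the 175 did. Other entries among the 21 also overlap, as those with summits at 863803 and 864027, so the 21 are not separate sites. A dependence of the signal on how reads map to repeated words was not tested.

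**Figure D4:**
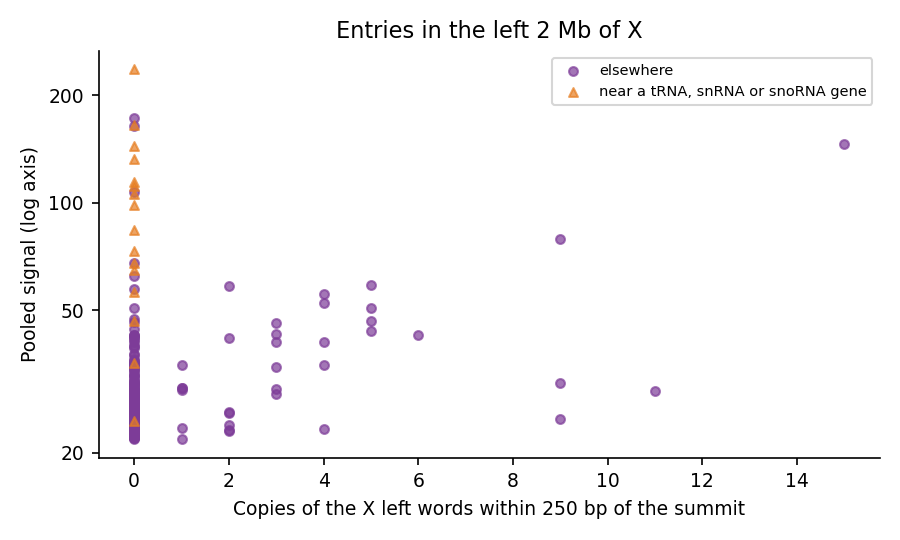
Pooled signal (y axis, log scale) against copies of the 9 X words within 250 bp of the summit (x axis) for the 225 entries in the left 2 Mb of X. Orange triangles, near tRNA, snRNA or snoRNA genes, all lie at 0 copies, and the entry with 15 copies has a signal of 145.6.

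The words concentrated in the other ends did not share this placement to the same extent. In the left end of IV 3.05% of 1541 copies lay within 250 bp of a pooled summit, over 10.6% of bases, and in the right end of III 5.31% of 1357 copies, over 10.4%. Among the opposite ends the values were 13.1% over 6.88% on II, 14.2% over 7.66% on V, 4.16% over 7.95% on III and 4.08% over 5.70% on IV. On chromosome I the right end had 157 words, with 15.5% of copies near a summit over 10.2% of bases, and the left end 44 words, with 14.1% over 8.97%. In the right ends of II and X and in the left end of V no word reached the limit, and for their highest-ranking words the bins in the end came to 25.9%, 20.2% and 18.1% of the genome copies. All 6 ends with a mapped pairing centre had such words, as did 3 of the other 6.

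**Figure D5:**
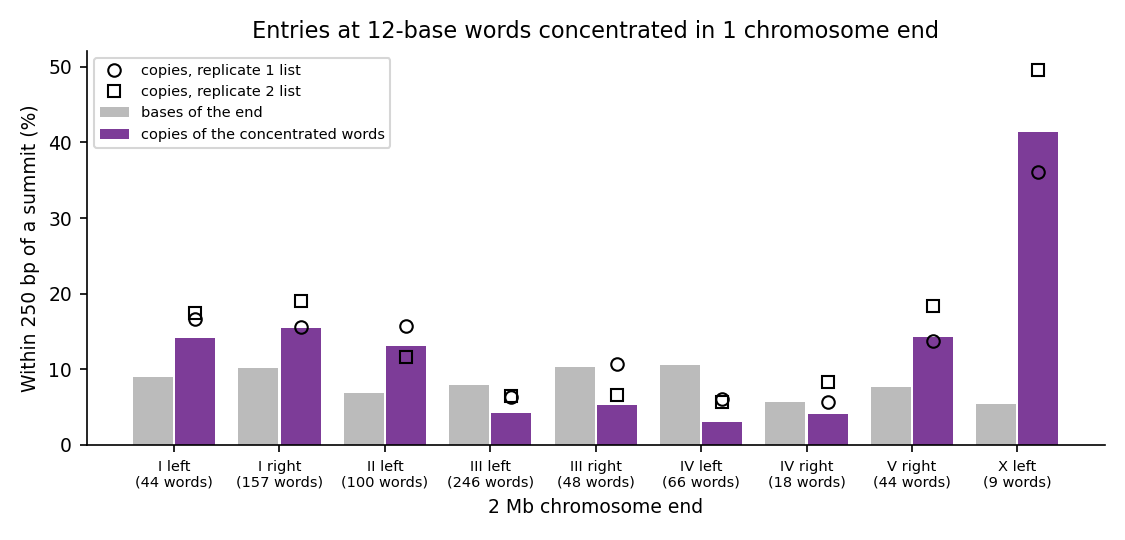
Percentage within 250 bp of a pooled summit (y axis) of the bases of each end (grey) and of the copies of the words concentrated there (purple), for the 9 ends with such words (x axis). Open circles and squares give the copies by the lists of replicates 1 and 2. The left end of X stands at 41.4% of copies over 5.38% of bases.

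Some words were shared between ends of different chromosomes, at mapped and other ends alike. Of the copies of the chromosome I right-end words on IV, 692 of 887 lay in its left 2 Mb. Of the copies of the chromosome I left-end words on III, 587 of 821 lay in its right 2 Mb. Words of the left end of IV had 237 of their 393 copies on X in its left 2 Mb, and 185 of 428 on II in its left 2 Mb.

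Base composition did not set the selected ends apart. The median GC content of the 201 bases around the summit was 35.3% in the selected ends, the opposite ends and the whole list. The telomere repeat unit, TTAGGC on either strand, occurred in 7.42% (6.24 to 8.75%) of these windows in the selected ends, 6.25% in the opposite ends and 5.33% in the whole list, and in 5.01% of windows of the same length tiled along the genome.

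The limit of 2 Mb fell between entries without an optimal peak on every chromosome but III. The entries just inside it had signals of 67.0 on III, 31.9 on X, 26.4 on IV, 24.9 on V and 23.2 on II. Those just outside had 28.3, 25.3, 28.5, 23.1 and 26.3 in the same order. The entry just inside on III lay within 500 bp of the 5' end of C24H11.2 and had an optimal peak, and the other 9 had none.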

How the data were processed

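The deposited files are peak lists from HIM-1-GFP chromatin immunoprecipitation with 2 replicates of 1 group. The labels' file lists record that the authors called peaks in each replicate (22720 and 24220 entries) and in both pooled (18314), each against a control, then thresholded them by IDR (2051). The signal of each entry and its −log10 q-value are the authors' deposited values. The sources used here name no aligner or caller, and read depth is unknown. Signals were used within a list, and lists on ce10 were not used.

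Summits were placed as start plus column 10. Genes were those of Ensembl for WBcel235, the sequence of ce11, and tRNA pseudogenes came from RefSeq. A selected end was compared with its opposite end by a 2-sided exact sign-flip permutation over 5 chromosomes, adjusted over 6 tests. Share intervals are 95% Clopper-Pearson intervals and, like those of ratios, cover counting error over entries only. Tools were Python 3.11.15, numpy 2.4.6, scipy 1.17.1 and pandas 2.3.3. The calculation was checked on simulated data, with entries placed at random and the same planted ratio on each chromosome. Such data lack the overlapping entries and the differences between chromosomes seen here. Genes named are those nearest the 5 strongest entries of each selected end and the 2 of each opposite end, small RNA genes at them, and genes at the 2 Mb limit. Words were chosen from the genome alone, with limits set after the genome's words were seen. The rule, lists and tests were chosen with earlier results of these data known.

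Alternatives were ends of 1 and 3 Mb, entries with −log10 q of 2 or more, each replicate's list, summits within 1 kb counted once, each chromosome left out, the genetically mapped ends, other windows for sharing and for small RNA genes, and mean signal.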

Additional observations from a re-analysis of the deposited data

How the results depend on the processing

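No value passed its test in the comparison of selected with opposite ends. With 5 chromosomes none could, since the smallest possible p, 0.062, lies above the threshold. Of 84 alternative settings, 79 kept the direction of both the pooled value and the tested mean over chromosomes. With 5 chromosomes or fewer, staying above the threshold was fixed in advance, so it says nothing about stability. Only the genetically mapped ends, with chromosome I added, could cross it. The 5 exceptions were differences in the optimal share. With the genetically mapped ends it was -3.26 percentage points for all entries, past the threshold as given above, and -2.53 without summits near small RNA genes. The tested mean also turned, while the pooled value did not, for all entries without chromosome II (mean -0.99, pooled 0.340) and without III (mean -0.18, pooled 1.05), and without small RNA summits at −log10 q of 2 or more (mean -0.83, pooled 1.17). The density ratio ran from 1.11 with the mapped ends to 1.52 with entries of −log10 q of 2 or more, which leave 202 selected and 133 opposite entries, and from 1.12 to 1.99 without small RNA summits. Each replicate's list alone gave 1.20 to 1.22 and 1.22 to 1.24 for these ratios, 0.420 to 0.450 and 0.474 to 0.518 for the signal differences, and 1.63 to 2.02 and 2.58 to 2.94 for the share differences. The share differences also use the optimal list, made from both replicates. Without chromosome IV the signal difference fell to 0.171 (0.630 without small RNA summits). In ends of 1 Mb the share difference was 4.16, higher on 5 of 5 chromosomes (exact permutation p = 0.062, the smallest possible). Windows of 100 and 500 bp, chosen after seeing the data, gave 31.1% and 48.9% of X word copies near a summit, over 2.26% and 10.4% of bases. No paired analysis was possible because the replicate numbers belong to 1 group and pair no groups (the chromosome test pairs the ends of each chromosome). With 5 chromosomes the test cannot go below 0.062, and with no depth given, absence of an entry does not show absence of binding.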
